A study of Mus musculus with 7 samples.

Results

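Transcripts of 44 genes that carry glucose and other hexoses through glycolysis, the pentose phosphate pathway and glycogen metabolism were listed by name, and 32 of them were measured by a probe set with that single gene symbol, among 14807 genes so measured. The RNA was from islets, the small endocrine organs scattered through the pancreas, of triple knockout mice that lack FoxO1, FoxO3 and FoxO4 in their beta cells (3 samples, numbered 5 to 7) and of controls labelled WT (4 samples, numbered 1 to 4). All animals were of a mixed 129 x FVBn x C57BL/6 background, and littermates of like age and sex were used. The sources used here do not give the promoter driving the deletion, the age of the mice or whether a sample pooled several mice. Knockout samples are titled R+KO, and what R+ stands for is not explained. No control carries it, so whatever it stands for cannot be told apart from the deletion. Islets also hold other cell types, which a beta cell deletion leaves intact. Each sample was hybridised to 1 Affymetrix array, and all values below are log2 expression, so that a difference of 1 is a doubling, with differences given as knockout minus control.

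Glycolysis splits a hexose into pyruvate. Hexokinases trap the sugar, phosphofructokinase commits it, aldolase and triosephosphate isomerase yield triose phosphates, and enolase and pyruvate kinase finish the route, while fructose bisphosphatase runs the committed step backwards. The pentose phosphate pathway branches off at glucose 6-phosphate, and its non-oxidative arm exchanges sugar phosphates back into glycolysis. Glycogen is built from UDP-glucose on the primer glycogenin and is opened again by glycogen phosphorylases. In beta cells glycolytic flux sets the ATP supply that triggers insulin release, and these cells normally hold low-affinity glucokinase in place of most other hexokinase. FoxO factors switch genes on in the nucleus and leave it when insulin signals.

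Array medians over 23238 probe sets ran from 7.11 to 7.29. Controls 3 and 4 stood apart, with upper quartiles of 8.63 and 8.81 against 8.88 to 8.95 in the other 5 samples, so many of the differences are also given without them. Of the deleted genes, Foxo4 differed by -0.47 (SE 0.16) and Foxo3 by -0.16 (SE 0.11), both without overlap between the groups, and Foxo1 by -0.26 (SE 0.17) with overlap, or by -0.50 (SE 0.15) without controls 3 and 4. Mean levels of 6 beta cell markers, Ins2 and Pdx1 among them, were 11.70 to 11.85 in controls and 11.60 to 11.98 in knockouts. Differences were negative for 4 of the 6 and positive for 2, Ins2 (0.22, SE 0.12) among these, while 68.4% of all genes were positive. Slc30a8 (-0.24, SE 0.11) was lower in every knockout than in every control (background 1.94%). At an unadjusted p under 0.05, 0 of the 6 were higher or lower (backgrounds 11.6% and 2.14%). The 5 measured acinar markers, which belong to the exocrine pancreas around the islets, had means of 8.84 to 10.30 in controls and 9.59 to 10.22 in knockouts. All 5 endothelial markers had negative differences, while 68.4% of all genes had positive ones. Their means were 8.56 to 9.05 in controls and 8.48 to 8.70 in knockouts. Of these Kdr was lower at an unadjusted p under 0.05 (-0.45, background 2.14%), and 3 of 5 were so without controls 3 and 4 (background 1.22%). The part of endothelial cells in the results below was not tested.

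In knockout islets no gene of sugar metabolism passed the test across all genes, and the values below describe differences that did not reach that threshold. The genes for glycogen branching enzyme (Gbe1), glycogenin (Gyg), triosephosphate isomerase (Tpi1), fructose bisphosphatase 1 (Fbp1) and ribulose-phosphate epimerase (Rpe) had means 1.64 to 1.82 times the control level. Pfkfb2, which encodes a bifunctional enzyme that sets the level of the main activator of phosphofructokinase, was at 0.740 times the control level. Of the 32 measured genes 0 had an adjusted p under 0.05 (limma with Benjamini-Hochberg adjustment, background 0.00675% of all genes), and their adjusted p values ran from 0.362 to 0.992. At an unadjusted p under 0.05 there were 9 higher and 1 lower, that is 9 of 32 against a background of 11.6% of all genes higher and 1 of 32 against 2.14% lower. The groups did not overlap for 3 higher genes (background 8.99%) and 1 lower gene (background 1.94%). The median of the differences was 0.11 over the 32 genes and 0.08 over all genes, and 65.6% of the 32 differences were positive, against 68.4% over all genes. Scaling changed this balance. After quantile normalization of the 14807 genes 5 were higher and 3 lower, against backgrounds of 7.21% and 7.15%. With each array centred on the median of its 14807 genes 5 were higher and 4 lower, against 7.58% and 6.55%. The array medians given above are those of all 23238 probe sets and were not used for this centring. Over all genes the share of positive differences was then 46.3% and 38.7%, and it was 58.5% without controls 3 and 4. Centring moved the median of all genes from 0.08 to -0.06. The 6 genes named in this paragraph were at an unadjusted p under 0.05 under all 3 scalings. The share of all genes for which this held was not counted, and the scalings reuse the same 7 samples. Without controls 3 and 4, an alternative chosen with the data known, 1 gene (Ldhb) was higher and 1 (Pfkfb3) lower, against 3.51% and 1.22% of all genes, and none of the 6 was among them.

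**Figure D1:**
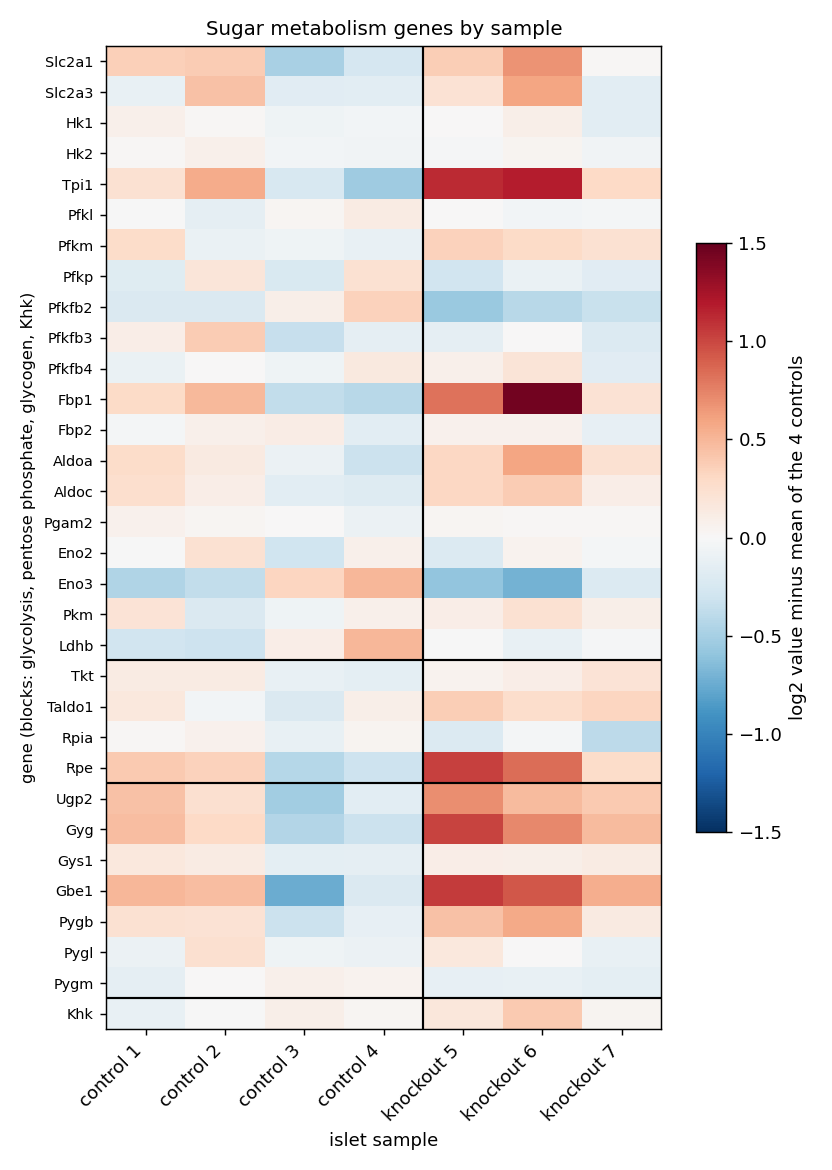
Log2 value of each of the 32 genes in each sample minus the mean of the 4 controls, shown as colour from -1.5 (blue) to 1.5 (red), with a vertical line between control and knockout samples. Tpi1, Fbp1, Rpe, Gyg and Gbe1 are red in knockouts 5 and 6 and paler in knockout 7, and are blue in controls 3 and 4. Eno3 and Pfkfb2 show the opposite order.

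None of the measured transporter and hexokinase genes had an unadjusted p under 0.05. Slc2a1, a glucose transporter found on many cell types, was at 10.38, 10.40, 9.53 and 9.77 in controls 1 to 4 and at 10.39, 10.70 and 10.04 in knockouts 5 to 7. Controls 3 and 4 were the lowest, and the groups overlapped. The difference was 0.35 (SE 0.25, limma, adjusted p = 0.530), and -0.01 (SE 0.19) without controls 3 and 4. Slc2a3, a high-affinity glucose transporter, differed by 0.21 (SE 0.21), and by 0.05 without those samples. The 95% interval for Slc2a1 ran from -0.22 to 0.93 and that for Slc2a3 from -0.27 to 0.70. Hk1, a high-affinity hexokinase, was at 6.82, 6.77, 6.68 and 6.71 in controls and at 6.76, 6.83 and 6.58 in knockouts, so that the groups covered the same range. Its difference of -0.02 had a 95% interval of -0.24 to 0.20, and that of Hk2 of -0.01 an interval of -0.20 to 0.19. Both genes were dim, with 37.7% of genes at a lower mean than Hk1 and 26.7% at a lower mean than Hk2. Differences are compressed at such levels. Hk3 was not analysed here.

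Among phosphofructokinases, which catalyse the committed step, Pfkm, the muscle type subunit, was at 9.12, 8.75, 8.79 and 8.74 in controls and at 9.19, 9.14 and 9.08 in knockouts. Control 1 stood with the knockouts, above 1 of them, and the other 3 controls lay close together below. The difference was 0.29 (SE 0.12, unadjusted p = 0.0398, adjusted p = 0.362 in limma), and 0.10 with an unadjusted p of 0.381 after quantile normalization. Pfkl, the liver type, differed by -0.02 (SE 0.09). Pfkp, the platelet type, differed by -0.19 (SE 0.14), and by -0.36 with an unadjusted p of 0.0283 after quantile normalization. The subunits thus had differences of both signs, and the difference between subunits was not tested.

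In the values as deposited Pfkfb2 was the single gene of the 32 that was lower in every knockout than in every control. Such genes numbered 4 of the 32 after quantile normalization (811 of all 14807 genes) and 6 with arrays centred (1001 of all 14807). Pfkfb2 was at 10.85, 10.85, 11.15 and 11.41 in controls 1 to 4 and at 10.51, 10.65 and 10.73 in knockouts 5 to 7. The gap between the groups was narrow beside the spread of the controls, in which samples 3 and 4 were the highest. The difference was -0.43 (SE 0.15, 95% interval -0.79 to -0.08), with an unadjusted p of 0.0221 and an adjusted p of 0.362 in limma. It was -0.22 (SE 0.11) without controls 3 and 4 and -0.65 after quantile normalization. Pfkfb3, a form with high kinase activity that many proliferating cells use, differed by -0.11 (SE 0.17), and by -0.35 (SE 0.13, unadjusted p = 0.0333) without controls 3 and 4. Pfkfb4 differed by 0.03 (SE 0.12).

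One of 3 windows before annotated starts of Pfkfb2 held the E-box letters CACGTG, which factors such as USF, Myc and ChREBP read. It is shown because this was the single gene lower in every knockout in the values as deposited. It gives the 250 bases before the start, 5′ to 3′ in the direction of the gene, from RefSeq on GRCm38.p6, with capitals for the letters found.
Pfkfb2, chr1:130715822-130716071, minus strand: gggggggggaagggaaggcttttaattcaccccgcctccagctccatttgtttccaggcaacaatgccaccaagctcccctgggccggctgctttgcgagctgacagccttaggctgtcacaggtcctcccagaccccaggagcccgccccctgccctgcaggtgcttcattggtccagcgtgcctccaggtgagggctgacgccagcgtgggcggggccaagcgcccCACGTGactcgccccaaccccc

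Of the fructose bisphosphatases, which oppose phosphofructokinase, Fbp1, the form used in liver gluconeogenesis, was at 7.40, 7.60, 6.75 and 6.70 in controls and at 7.93, 8.56 and 7.32 in knockouts. Knockout 6 was the highest sample, knockout 7 lay below controls 1 and 2, and controls 3 and 4 were the lowest. The difference was 0.83 (SE 0.33, unadjusted p = 0.0344, adjusted p = 0.362 in limma), 0.72 after quantile normalization and 0.44 (SE 0.32) without controls 3 and 4. Fbp2, the muscle form, differed by 0.003 with a 95% interval of -0.24 to 0.25, and the difference between the forms was not tested. Knockout 6 was also the highest sample, and control 4 the lowest, in the mean of the markers of duct and of erythroid cells. The same held for markers of alpha cells and of nerve and glia. With the mean of each array removed, knockout 6 stayed the highest for duct and erythroid markers, but knockout 7 was the lowest. Control 3 was then the highest for alpha and for nerve and glia markers. For duct and for erythroid cells 2 of 4 listed markers were measured. Duct markers Krt19 and Sox9 had a mean of 7.57 in knockout 6 against 6.81 to 7.25 in the other samples, and erythroid markers Alas2 and Slc4a1 had 7.09 against 6.18 to 6.83. None of these 4 markers had an unadjusted p under 0.05, and their part in the Fbp1 difference was not tested. In bulk islets fewer cells of a type and less RNA per cell cannot be told apart.

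Fbp1 and Fbp2 are neighbours on chromosome 13 in the RefSeq annotation, with 0 other genes lying wholly between them, and their upstream windows are shown because Fbp1 had an unadjusted p under 0.05 and Fbp2 did not. Capitals in Fbp2 mark the insulin response letters CAAAACA and the E-box CACGTG, and Fbp1 held neither.
Fbp1, chr13:62888283-62888532, minus strand: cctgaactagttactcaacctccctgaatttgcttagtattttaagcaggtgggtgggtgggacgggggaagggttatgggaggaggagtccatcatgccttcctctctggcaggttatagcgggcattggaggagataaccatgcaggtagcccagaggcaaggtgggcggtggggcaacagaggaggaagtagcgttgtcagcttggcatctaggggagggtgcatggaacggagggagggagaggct
Fbp2, chr13:62858401-62858650, minus strand: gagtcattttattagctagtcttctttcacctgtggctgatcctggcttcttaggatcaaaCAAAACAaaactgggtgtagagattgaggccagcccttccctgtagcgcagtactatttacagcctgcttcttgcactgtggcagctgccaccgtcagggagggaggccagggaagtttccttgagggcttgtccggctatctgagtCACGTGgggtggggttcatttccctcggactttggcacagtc

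Aldolase and triosephosphate isomerase transcripts were higher on average. Aldoa, the aldolase of most tissues, was at 12.39, 12.26, 12.03 and 11.80 in controls and at 12.43, 12.71 and 12.35 in knockouts. Control 1 lay above knockout 7, and the difference was 0.38 (SE 0.16, unadjusted p = 0.0475, adjusted p = 0.364 in limma), or 0.17 (SE 0.14) without controls 3 and 4. After quantile normalization it was 0.21 with an unadjusted p of 0.124, and with arrays centred 0.24 with one of 0.116. Aldoc, a brain-enriched aldolase, differed by 0.26 (SE 0.14), and by 0.09 without controls 3 and 4. Tpi1 was at 10.94, 11.27, 10.48 and 10.18 in controls and at 11.83, 11.90 and 11.02 in knockouts. Knockouts 5 and 6 were above every control, while knockout 7 was below control 2. The difference was 0.87 (SE 0.30, 95% interval 0.17 to 1.56, unadjusted p = 0.0205, adjusted p = 0.362), 0.63 after quantile normalization and 0.48 (SE 0.27) without controls 3 and 4.

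One of 2 windows of Aldoc was the single one of 43 windows of the measured genes that held the FoxO binding letters GTAAACA, here as the reverse complement TGTTTAC in capitals.
Aldoc, chr11:78323948-78324197, plus strand: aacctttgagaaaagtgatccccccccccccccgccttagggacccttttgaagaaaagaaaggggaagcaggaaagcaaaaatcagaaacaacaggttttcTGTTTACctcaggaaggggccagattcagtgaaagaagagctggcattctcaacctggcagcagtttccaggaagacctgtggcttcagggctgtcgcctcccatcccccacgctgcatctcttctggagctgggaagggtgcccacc

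**Figure D2:**
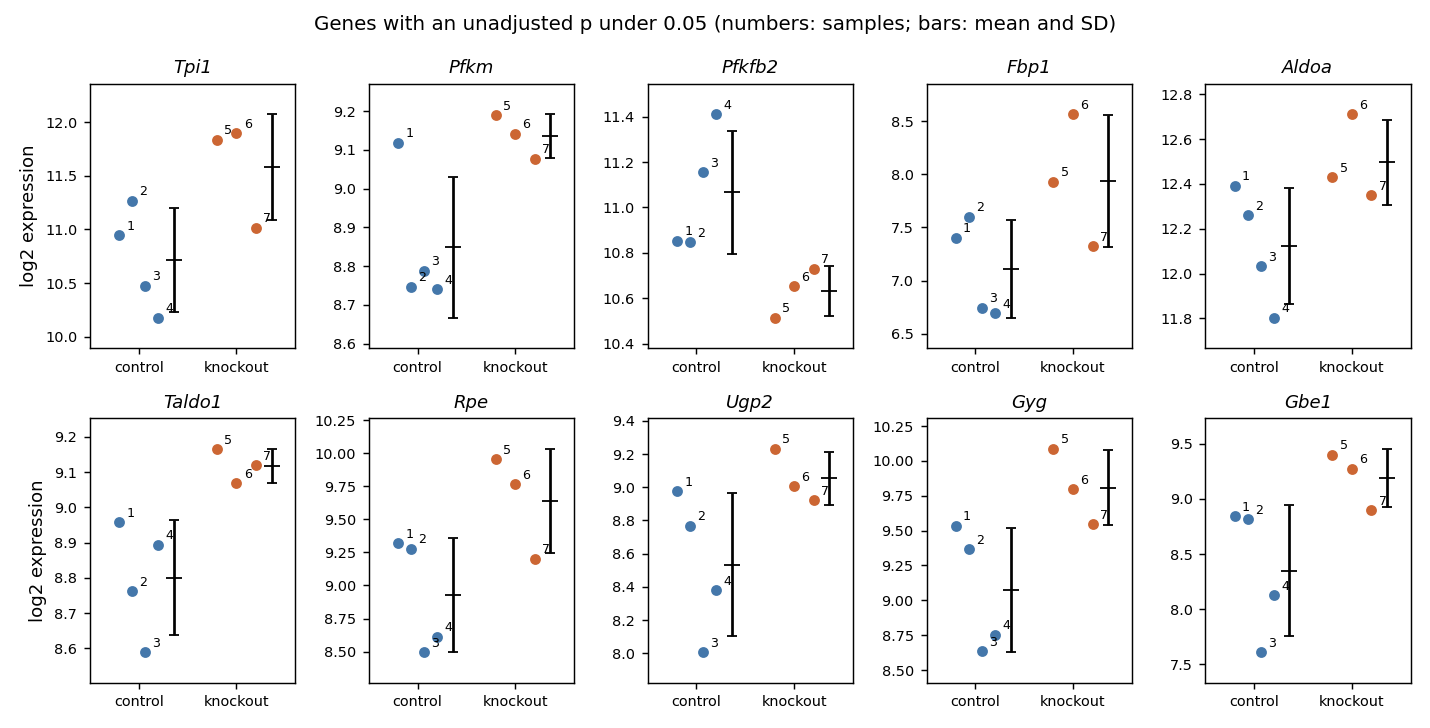
Log2 expression by sample of the 10 genes with an unadjusted p under 0.05, with points numbered by sample and bars for the mean and SD of 4 controls and 3 knockouts; each panel has its own vertical axis, which does not start at 0. Pfkfb2, Taldo1, Gyg and Gbe1 separate the groups, and in most panels controls 3 and 4 and knockouts 5 and 6 lie at opposite ends.

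The later steps of glycolysis gave differences of both signs. Eno3, the muscle enolase, was at 8.88, 8.96, 9.65 and 9.83 in controls and at 8.73, 8.62 and 9.12 in knockouts. Controls 3 and 4 were the highest and knockout 7 lay above controls 1 and 2. The difference was -0.50 (SE 0.26, adjusted p = 0.390 in limma) and -0.09 (SE 0.16) without controls 3 and 4, while with arrays centred it was -0.64 with an unadjusted p of 0.0464. Eno2, the enolase of neurons and endocrine cells, differed by -0.06 (SE 0.14), and by -0.17 without controls 3 and 4. Ldhb, the lactate dehydrogenase subunit of oxidative tissues, was at 7.61, 7.59, 7.996 and 8.39 in controls and at 7.89, 7.78 and 7.88 in knockouts. The knockouts lay between the 2 lower and the 2 higher controls, and the difference turned from -0.04 (SE 0.19) to 0.25 (SE 0.11, unadjusted p = 0.0459) without controls 3 and 4. Pgam2, the muscle phosphoglycerate mutase, was at 6.01, 5.98, 5.95 and 5.86 in controls and at 5.98, 5.97 and 5.96 in knockouts, a difference of 0.02 (SE 0.09). Markers of skeletal muscle, the tissue where Pgam2, Eno3, Fbp2 and Pygm are abundant, had means of 6.66 to 6.91 in controls and 6.74 to 6.98 in knockouts, and 0 of 3 had an unadjusted p under 0.05.

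The value listed for Pkm, pyruvate kinase of muscle and most other tissues, could not be assigned with confidence. Identifiers of probe sets on this array run in chromosome order, so that 99.5% of 14884 probe sets carried the chromosome of most of the 20 nearest. All 20 neighbours of the Pkm probe set were on chromosome 5, whereas RefSeq places Pkm on chromosome 9. Its difference of 0.14 (SE 0.12) is given for that probe set only. A lesser probe set of Ldhb lay in the same way among genes of chromosome 19, against chromosome 6 for the gene, and was not the one used. The other 31 probe sets of the genes lay among genes of their own chromosome. Gapdh, Pgk1, Eno1, Gpi1 and Pfkfb1 were not analysed here, nor was Pgam1, whose probe set carried several symbols, so glycolysis was covered by 20 of 27 listed genes.

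Over glycolysis as a whole 11 of 20 differences were positive, against 68.4% over all genes, with a median of 0.01. At an unadjusted p under 0.05, 4 of 20 were higher and 1 lower, against 11.6% and 2.14% of all genes. Together these 5 became 0 without knockout 5, 0 without knockout 6, 2 without control 3 and 2 without control 4. The matching shares of all genes were not counted, so a change of these genes cannot be told from one of all genes. With each array centred the median was -0.12, and 8 of 20 differences were positive, against 38.7% over all genes.

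In the pentose phosphate pathway 4 of 5 listed genes were measured, all of the non-oxidative arm, and Pgls of the oxidative arm was not analysed here. Taldo1, transaldolase, was at 8.96, 8.76, 8.59 and 8.89 in controls and at 9.16, 9.07 and 9.12 in knockouts. All 3 knockouts lay above all 4 controls, and no control stood with them. The difference was 0.32 (SE 0.11, unadjusted p = 0.0213, adjusted p = 0.362 in limma), 0.26 (SE 0.11) without controls 3 and 4, and 0.14 after quantile normalization. Rpe, the epimerase that makes xylulose phosphate, was at 9.32, 9.28, 8.50 and 8.61 in controls and at 9.95, 9.77 and 9.20 in knockouts. Knockouts 5 and 6 were above every control and knockout 7 was between the 2 pairs of controls, with a difference of 0.71 (SE 0.26, unadjusted p = 0.0253, adjusted p = 0.362) and one of 0.34 (SE 0.21) without controls 3 and 4. Rpia, the isomerase that makes ribose phosphate from the same substrate as Rpe, differed in the other direction, by -0.21 (SE 0.11, adjusted p = 0.412), and by -0.38 with an unadjusted p of 0.00807 after quantile normalization. Tkt, transketolase, differed by 0.12 (SE 0.11), and by -0.0058 without controls 3 and 4. The 2 genes at an unadjusted p under 0.05 (background 11.6% higher) became 0 without knockout 5 and 1 without control 3 or without control 4. For these fits the matching shares of all genes were not counted. The median of the 4 was 0.22.

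In glycogen synthesis 2 of 4 measured genes were higher in every knockout than in every control (background 8.99%). Gyg, glycogenin, the self-glucosylating primer, was at 9.53, 9.37, 8.63 and 8.75 in controls and at 10.09, 9.80 and 9.54 in knockouts. The groups did not overlap, although control 1 and knockout 7 nearly touched. The difference was 0.74 (SE 0.24, 95% interval 0.18 to 1.30, unadjusted p = 0.0159, adjusted p = 0.362 in limma). Gbe1, the branching enzyme, was at 8.84, 8.81, 7.61 and 8.13 in controls and at 9.40, 9.28 and 8.90 in knockouts. Here too the groups did not overlap, and controls 3 and 4 were far below the other samples. The difference was 0.84 (SE 0.30, 95% interval 0.15 to 1.54, unadjusted p = 0.0233, adjusted p = 0.362). Without controls 3 and 4 both genes differed by 0.36, with SE 0.17 for Gyg and 0.16 for Gbe1, and after quantile normalization by 0.55 and 0.69.

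Ugp2, which makes UDP-glucose, the sugar donor, was at 8.98, 8.77, 8.01 and 8.38 in controls and at 9.23, 9.01 and 8.92 in knockouts. Control 1 lay above knockout 7, and the difference was 0.52 (SE 0.22, unadjusted p = 0.0470, adjusted p = 0.364 in limma), or 0.18 (SE 0.14) without controls 3 and 4. After quantile normalization it was 0.35 with an unadjusted p of 0.0540, and with arrays centred 0.39 with one of 0.0504. Gys1, the glycogen synthase that extends the chains outside liver, differed by 0.10 (SE 0.11), with a 95% interval of -0.15 to 0.35, and by -0.04 without controls 3 and 4. Pgm1 and Pgm2, phosphoglucomutases that link glycogen to glycolysis, were on probe sets with several symbols and were not analysed here.

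The upstream windows of Gyg and Gbe1 are shown as those of the pair with the largest differences among glycogen genes, and neither held any of the letters searched.
Gyg, chr3:20155117-20155366, minus strand: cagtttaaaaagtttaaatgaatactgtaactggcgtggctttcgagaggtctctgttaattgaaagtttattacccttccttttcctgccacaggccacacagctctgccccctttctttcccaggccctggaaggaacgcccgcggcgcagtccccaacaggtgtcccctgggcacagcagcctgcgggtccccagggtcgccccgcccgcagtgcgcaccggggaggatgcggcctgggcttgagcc
Gbe1, chr16:70313699-70313948, plus strand: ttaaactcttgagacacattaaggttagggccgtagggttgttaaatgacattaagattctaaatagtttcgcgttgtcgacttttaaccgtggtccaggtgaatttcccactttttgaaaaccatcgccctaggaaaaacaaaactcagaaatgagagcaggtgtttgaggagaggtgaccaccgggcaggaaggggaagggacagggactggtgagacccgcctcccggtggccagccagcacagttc

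Among phosphorylases, which release glucose phosphate from glycogen, Pygb, the brain form, was at 8.30, 8.29, 7.75 and 7.94 in controls and at 8.51, 8.64 and 8.21 in knockouts. Knockout 7 lay below controls 1 and 2, and the difference was 0.38 (SE 0.17, unadjusted p = 0.0543, adjusted p = 0.368 in limma), or 0.16 without controls 3 and 4. Pygl, the liver form, differed by 0.02 (SE 0.12) and Pygm, the muscle form, by -0.13 (SE 0.09), or by -0.06 each without controls 3 and 4. Of 7 measured glycogen genes 6 had positive differences, against 68.4% over all genes. After quantile normalization, with arrays centred or without controls 3 and 4, 4 of 7 (57.1%) did. The matching shares over all genes were 46.3%, 38.7% and 58.5%. Their median was 0.38 against 0.08 over all genes, and 3 were higher at an unadjusted p under 0.05 (background 11.6%). These 3 became 0 without knockout 5, 1 without knockout 6 and 1 without control 4, fits for which the matching shares of all genes were not counted. They became 0 without controls 3 and 4 (background 3.51%). The median of the glycogen genes was 0.23 after quantile normalization, 0.24 with arrays centred and 0.16 without controls 3 and 4. Over all genes it was -0.02, -0.06 and 0.03. Khk, ketohexokinase, which starts fructose use, was at 7.80, 7.91, 8.01 and 7.95 in controls and at 8.09, 8.31 and 7.96 in knockouts. Knockout 7 stood among the controls, and the difference was 0.20 (SE 0.11, adjusted p = 0.427). Akr1b3 and Sord of the polyol pathway were not analysed here.

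**Figure D3:**
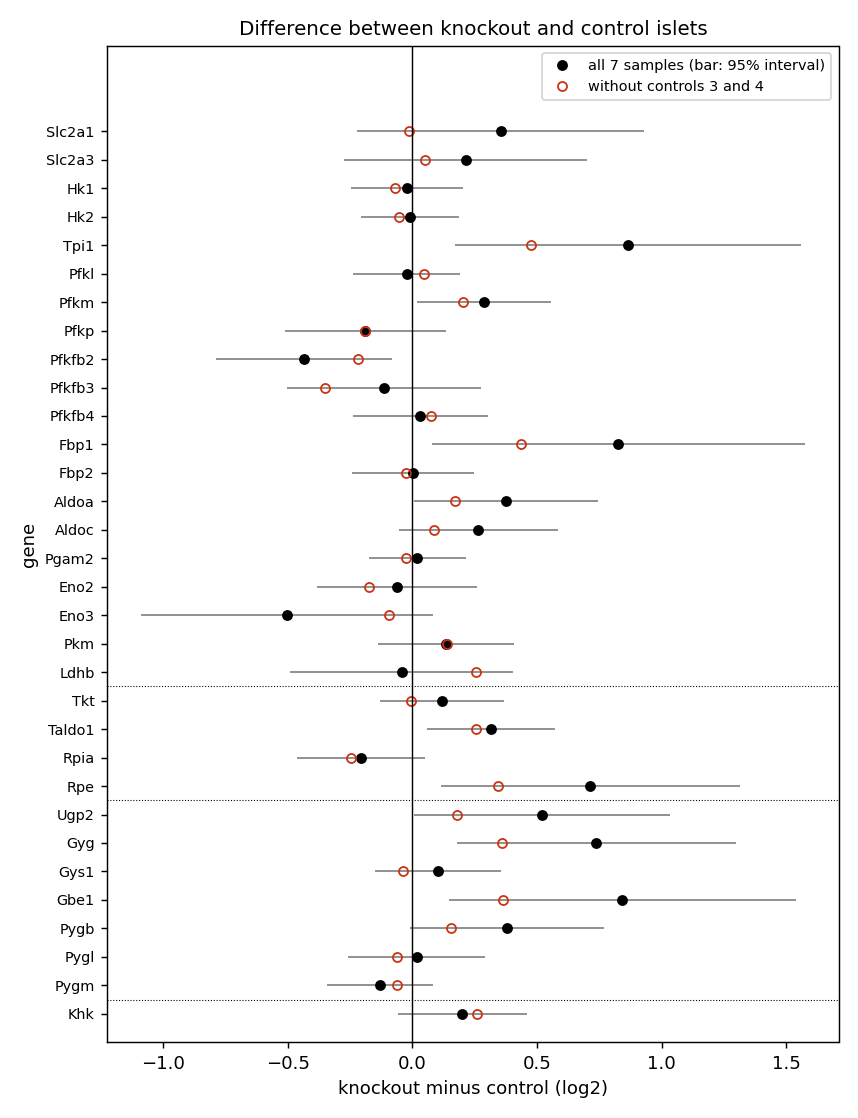
Knockout minus control difference on the log2 scale for each gene, with filled points and 95% intervals for all 7 samples and open circles for the fit without controls 3 and 4. Dotted lines part glycolysis, pentose phosphate, glycogen and Khk. The open circles of Tpi1, Fbp1, Rpe, Ugp2, Gyg and Gbe1 lie nearer to 0 than the filled points and on the same side.

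Leaving out controls 3 and 4 left 6 of the 32 differences within 1.5 times their value, made 13 over 1.5 times smaller and 5 over 1.5 times larger, and turned the sign of 8. Of the 10 genes at an unadjusted p under 0.05, 8 were over 1.5 times smaller, and 2, Pfkm and Taldo1, were within 1.5 times. The mean of each array was removed to see whether the groups of genes moved with the array as a whole. The mean of the glycogen genes lay above the mean of all genes by 0.55, 0.57, 0.22 and 0.33 in controls 1 to 4 and by 0.74, 0.64 and 0.56 in knockouts 5 to 7. Knockout 7 was thus level with controls 1 and 2, and controls 3 and 4 were low. For the pentose phosphate genes the same quantity was 1.59, 1.56, 1.41 and 1.48 in controls and 1.67, 1.65 and 1.55 in knockouts. For glycolysis it was 0.80, 0.87, 0.87 and 0.88 in controls and 0.80, 0.92 and 0.77 in knockouts, which covered the controls' range. Immediate early genes, which cells induce quickly on stimulation or handling, were measured for 19 of 20 listed. Of these 18 had negative differences and 1 a positive one, against 68.4% positive over all genes. At an unadjusted p under 0.05, 0 were lower as deposited (background 2.14%), 3 after quantile normalization (background 7.15%) and 2 with arrays centred (background 6.55%). Without controls 3 and 4, 8 of the 19 were negative and 57.9% positive, against 58.5% positive over all genes. The mean of the 19 genes was 10.59 and 10.63 in controls 3 and 4 and 10.32 in knockout 7, against 9.48 to 10.13 in the other 4 samples. Its part in these differences was not tested.

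**Figure D4:**
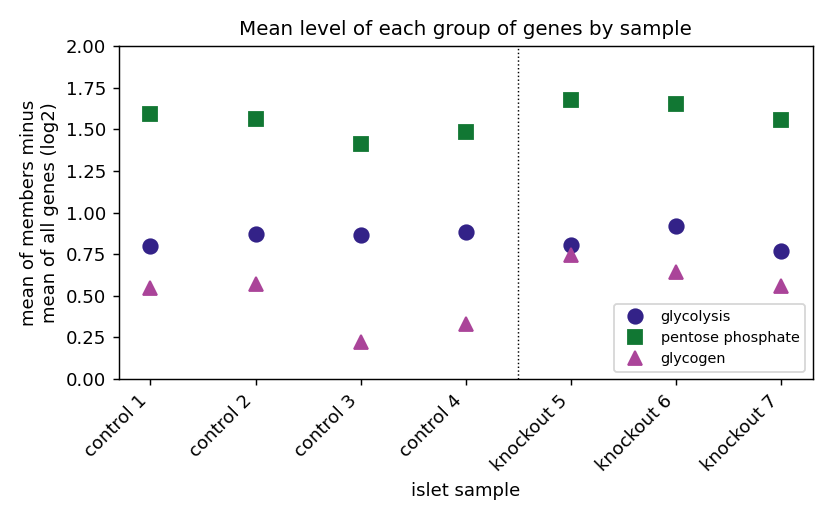
Mean log2 value of the measured glycolysis (20), pentose phosphate (4) and glycogen (7) genes minus the mean of all genes, for each sample. Glycogen points lie at 0.22 and 0.33 in controls 3 and 4 and between 0.55 and 0.74 elsewhere, whereas glycolysis points overlap between the groups. Levels of different groups of genes are not comparable with each other.

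Other genes of sugar metabolism, listed by role, had more positive than negative differences in the values as deposited. Of 79 measured genes outside the 32, 67 (84.8%) had positive differences, against 68.4% over all genes, with a median of 0.16 against 0.08, and 16 were higher at an unadjusted p under 0.05 (background 11.6% of all genes) while 0 were lower, with 0 past the adjusted threshold. After quantile normalization 47 of 79 (59.5%) were positive, against 46.3% over all genes, with 9 higher and 2 lower (backgrounds 7.21% and 7.15%). Without controls 3 and 4 it was 51 of 79 (64.6%), against 58.5%, with 5 higher and 0 lower (backgrounds 3.51% and 1.22%). Further glycogen genes included Stbd1, a glycogen-binding protein linked to its delivery to lysosomes, with a difference of 0.72 (SE 0.19, unadjusted p = 0.00526 in limma). Gys2, the liver glycogen synthase, differed by 0.41 (SE 0.12), at low means of 5.40 in controls and 5.81 in knockouts. Epm2a, the glycogen phosphatase laforin, differed by 0.30 (SE 0.12) and Phkg2, a phosphorylase kinase subunit, by 0.20 (SE 0.08). All 4 were without overlap (background 8.99%), and 4 of 15 genes in that list were higher at an unadjusted p under 0.05 (background 11.6%). After quantile normalization it was 2 of 15 (background 7.21%), with Phkg2 at 0.014 and Epm2a at 0.16, and without controls 3 and 4 it was 2 of 15 (background 3.51%).

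In the wider pentose phosphate list 2 of 8 were higher by the unadjusted p (background 11.6%). These were Prps2, which makes phosphoribosyl pyrophosphate, by 0.77 (SE 0.25), and Shpk, sedoheptulokinase, by 0.36 (SE 0.11). Prps2 differed by 0.40 and Shpk by 0.27 without controls 3 and 4. Of 19 further glycolysis and gluconeogenesis genes 4 were higher (background 11.6%), namely Gpd1l, a glycerol phosphate dehydrogenase relative, by 0.51 (SE 0.19), Tigar, a bisphosphatase that lowers glycolytic flux, by 0.24 (SE 0.09), Pklr, the liver and red cell pyruvate kinase, by 0.26 (SE 0.11), and G6pc2, the islet glucose 6-phosphatase, by 0.39 (SE 0.17). After quantile normalization 1 of the 19 was higher and 1 lower (backgrounds 7.21% and 7.15%), with Tigar at 0.06 and Pklr at 0.09. Gpd1l differed by 0.27 and G6pc2 by 0.14 without controls 3 and 4. Among 16 genes of other hexoses and amino sugars 5 were higher (background 11.6%), and 1 was without controls 3 and 4 (background 3.51%). Mpi, phosphomannose isomerase, differed by 0.57 (SE 0.14, unadjusted p = 0.00392), and Gnpda2, a glucosamine phosphate deaminase, by 1.34 (SE 0.43). Its paralog Gnpda1 differed by 0.69 (SE 0.29) and Pmm2, phosphomannomutase, by 0.47 (SE 0.19), and the fifth was Aldh2, an aldehyde dehydrogenase, named after its value was seen, at 0.31 (SE 0.13). Without controls 3 and 4 Gnpda2 differed by 0.67, Gnpda1 by 0.22, Pmm2 by 0.20 and Mpi by 0.41. Each of these genes had an adjusted p of 0.362 or 0.364 in limma.

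Genes that answer low oxygen, a state known to raise many glycolytic genes, were examined outside the 32. Of 13 measured, 7 (53.8%) lay above 0 and 6 below, while 68.4% of all genes lay above 0. The median of the 13 was 0.0006, or -0.16 after quantile normalization and -0.14 with arrays centred. Over all genes it was 0.08, -0.02 and -0.06. At an unadjusted p under 0.05 Bnip3 (0.31, SE 0.12) and Egln3 (0.41, SE 0.17) were higher (background 11.6%). Vegfa was lower (background 2.14%), with a difference of -0.21 (SE 0.09) and no overlap (background 1.94%). None of the 13 had an unadjusted p under 0.05 without controls 3 and 4 (backgrounds 3.51% higher and 1.22% lower). The part of low oxygen in the differences of the 32 genes was not tested. The letters ACGTG, the core that hypoxia-inducible factors read, which also lie inside the E-box CACGTG, were found on either strand in 17 of 43 upstream windows of 31 genes of sugar metabolism. That is 39.5%, against 16.6% of all 32851 windows and 19.1% of the 14847 windows of genes on the array. The E-box was in 5 of the 43 (11.6%, against 6.02% of all windows and 7.28% of array gene windows). GTAAACA was in 1 (2.33%, against 3.17% and 2.55%) and CAAAACA in 1 (2.33%, against 5.56% and 4.16%). Windows of 1 gene can overlap, and G and C made up 58.5% of the bases in these windows, 53.2% in all windows and 57.1% in those of genes on the array. For the genes at an unadjusted p under 0.05, ACGTG was in 7 of 18 windows, and GTAAACA in 0 of 18. A match describes the letters only, and no match shows only that they are missing from this window.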

How the data were processed

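The log2 values deposited by the authors came from RMA, which corrects background, normalizes probes across arrays and combines the probes of a set. The deposited arrays did not share one distribution, with medians of 7.11 to 7.29 and upper quartiles of 8.63 to 8.95, and the reason was not tested. The submitters' processing notes name RMA and Affymetrix Expression Console. Values ran from 2.50 to 14.3, as log2 values do. No version, setting or genome build is given in the sources used here. RMA gives no detection call, and 10 of the 32 genes had a mean below the median gene, where differences are compressed. These were Slc2a3, Hk1, Hk2, Pfkfb4, Fbp1, Fbp2, Pgam2, Pkm, Pygl and Pygm. Precision is limited by the number of arrays.

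Of 23238 probe sets, 14939 carried 1 symbol in the platform annotation, 989 several and 7310 none. The highest-mean probe set represented each of 14807 genes. Groups and numbers came from the sample titles, in which the mark R+ on the knockouts is unexplained. The groups were tested by limma 3.58.1 under R 4.3.3 (two-sided, no covariates, Benjamini-Hochberg adjustment over all genes, threshold 0.05). Nothing says that samples came from separate mice, so p-values reflect the spread among these samples, which may be technical. The genes, their roles and the other lists were chosen with earlier results of these data known. Values are given in every sample for genes with an unadjusted p under 0.05 or no overlap and for the highest-mean gene of each role. In each list of other genes, the 4 with the smallest unadjusted p, where under 0.05, are named, and Aldh2 is named outside this rule. The scripts were checked on simulated data. The 16 alternatives were quantile normalization, centring, a filter on dim genes, mean probe sets, every probe set, a trended robust prior, an unmoderated test, array weights, each sample left out, and controls 3 and 4 left out. Upstream windows are the 250 bases before a start, from RefSeq on GRCm38.p6, and 31 of the 32 genes had one.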

Additional observations from a re-analysis of the deposited data

Results flagged for a closer look

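In 3 of the 32 genes, 1 control sample lay far from the other 3, with a gap to the nearest other sample that exceeded Dixon's 95% limit for 4 samples. These were Slc2a3 in control 2 at 6.82, Pfkm in control 1 at 9.12 and Pygl in control 2 at 6.63. Together with 4 group means, 36 sets of controls were examined, and chance alone gives about 1 in 20. Knockouts, with 3 samples, were not examined in this way.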

How the results depend on the processing

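None of the 32 genes passed the adjusted threshold under any of the 16 alternatives, where the lowest adjusted p was 0.173. Of the 32 genes 19 kept their sign in all alternatives, and the matching share of all genes was not counted. The cause of each change below was not tested. For the counts below at an unadjusted p under 0.05, the matching shares of all genes are not given here. Among all genes 1 passed; this was 2 with quantile normalization, centring or array weights, and 0 with every probe set tested, the unmoderated test or without controls 3 and 4. The 5 glycolysis genes at an unadjusted p under 0.05 became 3 with every probe set tested or the trended prior, and 2 with the filter on dim genes (fewer genes tested), the unmoderated test or without controls 3 and 4. The 3 glycogen genes became 0, and the 2 pentose phosphate genes 1, with the unmoderated test, and both 0 without controls 3 and 4. The glycolysis median was -0.124 with centring, and the pentose phosphate median 0.0386 with quantile normalization. With single samples left out the glycolysis count ran from 0 to 7 and the median from -0.0105 to 0.0569, the glycogen count from 0 to 4 and the median from 0.274 to 0.500, the pentose phosphate count from 0 to 2 and the median from 0.165 to 0.264, and the count of all genes from 0 to 1.

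Signs turned for 13 genes, of which Slc2a1 had the largest difference as deposited (0.35). With quantile normalization the values were -0.0659 for Fbp2, -0.0334 for Gys1, -0.0832 for Pfkfb4, -0.0466 for Pgam2, -0.0575 for Pygl and -0.0602 for Tkt. With centring they were -0.133 for Fbp2, -0.0333 for Gys1, -0.103 for Pfkfb4, -0.115 for Pgam2, -0.119 for Pygl and -0.0169 for Tkt. With array weights they were 0.0016 for Hk1, 0.104 for Ldhb, 0.0199 for Pfkl, -0.0001 for Pgam2 and -0.0211 for Pygl, and with mean probe sets 0.0407 for Ldhb. Without controls 3 and 4 they were -0.0245 for Fbp2, -0.0373 for Gys1, 0.254 for Ldhb, 0.0476 for Pfkl, -0.0236 for Pgam2, -0.0605 for Pygl, -0.0145 for Slc2a1 and -0.0058 for Tkt. With single samples left out, differences that turned ran from -0.160 to 0.016 for Eno2, -0.0515 to 0.0651 for Fbp2, -0.0744 to 0.0487 for Hk1, -0.0309 to 0.0154 for Hk2, -0.146 to 0.122 for Ldhb, -0.226 to 0.0153 for Pfkfb3, -0.0467 to 0.137 for Pfkfb4, -0.067 to 0.0161 for Pfkl, -0.0092 to 0.0401 for Pgam2 and -0.0506 to 0.0981 for Pygl. No paired analysis was possible because the sample titles do not say which samples came from the same litter.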

Other observations

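Of 9 measured genes of the pyruvate dehydrogenase complex and its kinases, 7 had positive differences (77.8%, against 68.4% over all genes). Their median was 0.23, and 0 had an unadjusted p under 0.05 in limma. Of 12 further sugar and monocarboxylate transporters 10 had positive differences (83.3%, against 68.4% over all genes) with a median of 0.07, against 0.08 over all genes. After quantile normalization 5 of the 12 were positive (41.7%, against 46.3% over all genes). In the values as deposited 1 of the 12 had an unadjusted p under 0.05 (background 11.6% higher), Slc2a6, a glucose transporter of the intracellular class, with a difference of 0.32 (SE 0.13, adjusted p = 0.362) and no overlap, or of 0.17 without controls 3 and 4.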
